A study of Mus musculus with 16 samples.

Results

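The genes described here are *Trp53*, which encodes p53, and 9 genes known as its targets: *Cdkn1a*, *Mdm2*, *Bax*, *Bbc3*, *Pmaip1*, *Phlda3*, *Ccng1*, *Eda2r* and *Trp53inp1*. They were listed by name for their known roles, with earlier results of these data known, and they are 10 of the 29453 genes in the count matrix. The study injected *Stat3* null embryonic stem cells (ESCs) that express tdTomato into wild-type (WT) blastocysts, and separated the cells of the chimeric embryos by tdTomato fluorescence, null cells being positive and host cells negative, for 3′ single-cell RNA sequencing. Each genotype had 2 libraries at embryonic day (E) 7.5, 2 at E8.5 and 4 at E9.5. The null ESCs are on the CD1 background, a neomycin cassette replaces several exons of *Stat3* in them, and tdTomato was added with puromycin selection and picking of colonies. How many such lines were injected is not given in the sources used here. The WT cells are the CD1 host. Passage in culture, the transgene and the *Stat3* deletion were therefore always together in the null cells and cannot be told apart. Embryos were pooled before sorting at the earlier stages. At E7.5 the study sorted the embryos by size into large and small ones before pooling, and which library holds which is not known. The spread between the 2 E7.5 libraries of a genotype can thus also hold that difference. At E9.5 the study describes fewer embryos than there are libraries, so n = 4 counts libraries whose independence is not known. Letters A to D name the libraries of a group and carry no order.

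p53 is a transcription factor whose protein is normally kept scarce by MDM2, a ubiquitin ligase that p53 itself induces, so that the pair forms a feedback loop. When the protein is stabilized, by DNA damage or other stress, it binds paired decamers in DNA and switches on genes that stop the cell cycle, such as *Cdkn1a*, or that promote apoptosis, such as *Bax*, *Bbc3* and *Pmaip1*. In the early mouse embryo, p53 activity has been studied in cell competition, in which less fit cells are removed when they meet fitter neighbors, and a chimera of mutant and WT cells is a setting in which that question can be put to these genes. Because p53 is controlled largely as a protein, the level of *Trp53* mRNA does not report its activity.

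Of the 10 genes, 8 had at least 1 promoter window in the RefSeq table (GRCm38.p6), each window reaching from 250 bases before to 50 bases after a start. The p53 consensus site, a pair of 10-base repeats up to 13 bases apart, was searched in each window, and a repeat reads the same on both strands. A full site without a mismatch was found in 0.0731% of all 32851 windows (24 windows), a site with at most 1 mismatch in 1.09%, and a single repeat without a mismatch in 8.36%. The stretches below are shown because they hold the sites of the 3 genes with a match, and the repeats are in capitals. *Cdkn1a* (chr17:29090886-29090957, plus strand) held a full site with no mismatch and a spacer of 12 bases, 73 to 42 bases before the start. The 10 bases right after its second repeat, left in lower case, fit the repeat with 1 mismatch. With that repeat they also form a site with 1 mismatch and no spacer. *Ccng1* (chr11:40755442-40755501, minus strand) held a site with 1 mismatch and no spacer, 195 to 176 bases before the start. *Bax* (chr7:45467070-45467130, minus strand) held a site with 1 mismatch and a spacer of 1 base, 212 to 192 bases before the start.
Cdkn1a: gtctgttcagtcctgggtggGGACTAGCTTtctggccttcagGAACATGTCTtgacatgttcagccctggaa
Ccng1: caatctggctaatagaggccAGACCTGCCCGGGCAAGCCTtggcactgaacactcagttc
Bax: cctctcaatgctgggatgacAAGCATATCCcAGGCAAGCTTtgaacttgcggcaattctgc
The windows of *Trp53* and *Mdm2* held a single repeat, and those of *Phlda3*, *Bbc3* and *Eda2r* held none. Bases outside the windows were not searched, so a window without a site does not show that the gene has none. *Trp53* (chr11:69580359-69591873, plus strand), *Ccng1* (chr11:40748552-40755311, minus strand) and *Stat3* (chr11:100885098-100939540, minus strand) lie on the same chromosome. The other genes lie on other chromosomes, *Cdkn1a* at chr17:29090976-29100727 on the plus strand and *Eda2r* on the X chromosome.

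A total of 37841 cells entered the comparisons, 17387 null and 20454 WT, in 87 cell types that the authors transferred from an atlas. The libraries held 360 to 4327 cells and 20682659 to 138613245 unique molecular identifiers (UMIs). Levels are given as UMIs of a gene per 1000000 UMIs of all genes (CPM) in the sum of a library's cells. *Stat3* stood at 1.16 to 2.53 CPM in the null libraries and 6.14 to 9.31 CPM in the WT libraries. The counts are per gene, so they do not tell reads of the replaced exons from those of the rest of *Stat3*. Libraries E9.5 WT C and E9.5 WT D shared 292 cell barcodes, 15.3% of the smaller library, and calls of the 10 genes and their counts over cell types at E9.5 are given with and without both, whereas other values that rest on E9.5 WT libraries are given with both unless stated. The summed level of 10 dissociation stress genes was 326 to 413 CPM in E9.5 null and 367 to 437 CPM in E9.5 WT libraries, and its part in the results was not tested. Cell types labelled Erythroid carried more of all 5 defining erythroid markers than other cells at E8.5 and E9.5.

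The question of the main comparison was whether null cells carried more of the p53 transcript or of its targets than the WT cells of the same embryos. In whole libraries, *Trp53* itself was close between the genotypes. It stood at 167 and 155 CPM in E7.5 WT against 148 and 195 CPM in E7.5 null libraries, and at 150 and 156 CPM in E8.5 WT against 142 and 156 CPM in E8.5 null libraries. At E9.5 the WT libraries A to D read 163, 172, 171 and 154 CPM and the null libraries 152, 176, 165 and 168 CPM. The groups overlapped at each stage. Averaged over the stages the log2 fold change of null over WT was 0.03 (SE 0.06, adjusted p = 0.891, edgeR's quasi-likelihood test over all genes).

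Of the 10 genes, 0 passed an adjusted p of 0.05 in whole libraries at E7.5, E8.5, E9.5 or averaged over the stages, where 5.34%, 0.212%, 1.35% and 4.75% of the 15553 genes tested did. At an unadjusted p under 0.05, *Cdkn1a* passed at E8.5, *Eda2r*, *Ccng1* and *Phlda3* at E9.5, and *Cdkn1a*, *Eda2r*, *Ccng1* and *Bbc3* in the average, all with the higher level in null. At that threshold 817 of the 15553 genes passed at E8.5, 1410 at E9.5 and 2914 in the average, and at E7.5 it was 2826 genes and 0 of the 10. Without both E9.5 WT C and E9.5 WT D the average log2 fold changes were 0.48 for *Cdkn1a* (adjusted p = 0.123), 0.79 for *Eda2r* (0.123), 0.32 for *Ccng1* (0.174), 0.11 for *Bbc3* (0.312), 0.27 for *Trp53inp1* (0.362), -0.27 for *Pmaip1* (0.638) and -0.03 for *Mdm2* (0.81), 0 of the 10 genes passed in any of these comparisons, and those at E9.5 were 0.97 for *Eda2r* (0.485), 0.45 for *Ccng1* (0.486) and 0.28 for *Phlda3* (0.857), all with edgeR. The difference of the null effect between stages passed for 0 of the 10 genes in any of the 3 pairs of stages, against 1.41% of genes for E8.5 and E7.5, 0.0321% for E9.5 and E8.5 and 1.9% for E9.5 and E7.5. *Phlda3* had the smallest p of these at 0.0316 before adjustment (E9.5 minus E7.5, log2 difference 0.62, SE 0.26, adjusted p = 0.348 with edgeR), and the difference ran from 0.36 to 0.84 with 1 library left out.

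*Cdkn1a*, which encodes the cyclin-dependent kinase inhibitor p21, was higher in both null libraries than in both WT libraries at E7.5, with 23.6 and 23.8 CPM against 15.6 and 17.9 CPM. The same held at E8.5, with 15.4 and 13.1 CPM in null against 9.48 and 9.15 CPM in WT. At E9.5 the groups overlapped, at 21.6, 10.4, 14.5 and 18.3 CPM in null and 15.6, 10.4, 15.3 and 11.6 CPM in WT. Of 12963 genes with a mean of at least 1 CPM, 14.8% were separated in this way at E7.5 (40.9% in either direction) and 19.6% at E8.5 (31.5% in either direction), so that separation alone was common. At all 3 stages together 1.03% of genes had null above WT, and none of the 10 did. The average log2 fold change over the stages was 0.48 (SE 0.14, adjusted p = 0.0791 with edgeR), and the exact two-sided permutation of genotype within stages gave p = 0.00952, where 0.000794 is the smallest that the 2520 arrangements allow. DESeq2 gave an adjusted p of 0.00955. With edgeR and 1 library left out, the adjusted p ran from 0.0197, without E9.5 null B, to 0.189. Of 27 alternative settings, only DESeq2 and the fit without E9.5 null B gave an adjusted p under 0.05. The share of all genes that these 2 settings called is not given here. In total 80 such permutation tests were run, for 10 genes, 2 measures and 4 sets of stages, and their p-values are not adjusted. How many of all genes would pass such a permutation was not tested.

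*Ccng1* encodes cyclin G1, a p53 target that acts in the feedback on p53 and MDM2. At E9.5 its 4 null libraries, at 22.6, 16.1, 16.2 and 18.0 CPM, all lay above the 4 WT libraries, at 14.7, 11.97, 10.6 and 15.8 CPM. Of all genes with a mean of at least 1 CPM, 3.77% were separated in this direction at E9.5. The exact permutation p was 0.0286, the smallest that 4 against 4 libraries allow, while the adjusted p of edgeR was 0.315 (log2 fold change 0.45, SE 0.16). At E8.5 null A was high at 20.9 CPM but null B, at 13.2 CPM, lay between the WT libraries at 13.7 and 11.5 CPM. At E7.5 the null libraries, at 22.2 and 21.9 CPM, also lay between the WT libraries, at 23.3 and 20.4 CPM.

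*Phlda3*, an inhibitor of AKT signaling, had log2 fold changes of -0.29 at E7.5 and 0.32 at E9.5 in whole libraries, neither of which passed (adjusted p = 0.524 and 0.535 with edgeR). With 1 library left out they ran from -0.51 to -0.036 and from 0.21 to 0.38. It stood at 47.0 and 32.7 CPM in WT against 34.9 and 27.5 CPM in null at E7.5, where the groups overlapped. At E8.5 it stood at 17.4 and 12.1 CPM in null, above and below both WT libraries, of which the lower read 12.997 CPM. At E9.5 it stood at 19.1, 15.9, 14.7 and 17.9 CPM in WT and 26.5, 18.3, 19.2 and 21.1 CPM in null, with WT A above null B. *Eda2r*, a receptor of the tumor necrosis factor receptor family, was rare, with 0.607 ± 0.117 CPM in E9.5 WT and 1.12 ± 0.364 CPM in E9.5 null libraries (SD, n = 4; 228 and 434 UMIs), and null B, at 0.646 CPM, lay below WT D, at 0.769 CPM. Its average log2 fold change was 0.76 (SE 0.24, adjusted p = 0.0987 with edgeR; exact permutation p = 0.0151).

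Among the genes of apoptosis, *Bax*, whose protein permeabilizes the outer mitochondrial membrane, was close between genotypes, at 217, 226, 207 and 228 CPM in E9.5 WT and 221, 228, 205 and 215 CPM in E9.5 null libraries. *Bbc3* encodes PUMA, which releases BAX from its inhibitors. It stood at 17.5, 17.2, 16.8 and 14.6 CPM in E9.5 WT and 19.3, 17.7, 18.7 and 16.8 CPM in E9.5 null libraries, which overlapped. Its average log2 fold change over the stages was 0.13 (SE 0.05, adjusted p = 0.195 with edgeR), with an exact permutation p of 0.0151. *Pmaip1* encodes NOXA, another activator of that pathway, and stood at 5.41 and 11.96 CPM in WT and 4.76 and 10.4 CPM in null at E7.5 and between 0.919 and 1.50 CPM in the 4 libraries of E8.5, with an average log2 fold change of -0.19 (SE 0.23, adjusted p = 0.727 with edgeR). *Mdm2* differed by -0.03 (SE 0.04, adjusted p = 0.798) and *Trp53inp1*, an autophagy and stress protein, by 0.29 (SE 0.15, adjusted p = 0.317; 0.14 to 0.40 with 1 library left out) in the same edgeR fit.

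**Figure D1:**
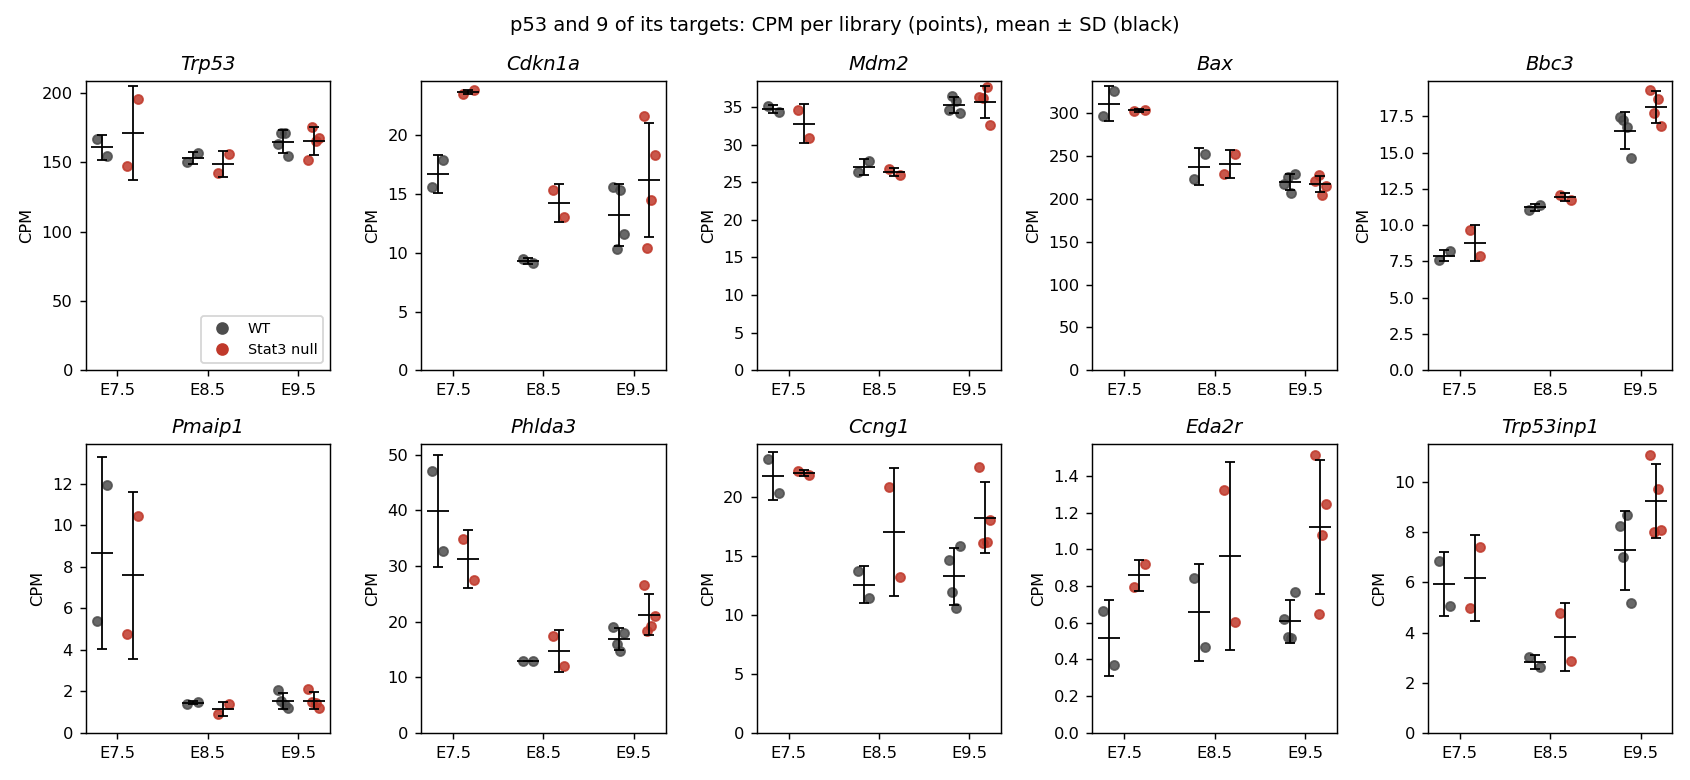
Level of each gene in whole libraries, in CPM on axes that start at 0, against embryonic day; points are libraries (gray WT, red *Stat3* null) and black bars give the mean ± SD. The 4 E9.5 null libraries of *Ccng1* lie above the 4 WT libraries, whereas those of *Trp53*, *Mdm2* and *Bax* are mixed.

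A sum over a library mixes the level within cell types and the share of each type, so fewer cells of a type and less RNA per cell cannot be told apart in it. At E7.5 the shares differed for the extra-embryonic (ExE) ectoderm, the trophoblast tissue beside the epiblast, with 15.8% and 9.37% of cells in the WT libraries and 0.0921% and 0% in the null libraries. In the WT cells of E7.5, *Phlda3* stood at 124 CPM in ExE ectoderm and 24.3 CPM in all other cells, *Ccng1* at 44.8 and 17.8 CPM, and *Mdm2* at 52.4 and 31.9 CPM. *Cdkn1a* was the reverse, at 6.87 CPM in ExE ectoderm and 18.7 CPM elsewhere. When each type held by all libraries of a stage was given equal weight (7 types for E7.5, 20 for E8.5 and 20 for E9.5), *Phlda3* at E7.5 stood at 35.4 ± 2.39 CPM in null and 27.0 ± 0.284 CPM in WT libraries (SD, n = 2). Its direction was thus opposite to that of the whole libraries at E7.5. *Cdkn1a* at E8.5 then read 8.31 and 5.96 CPM in null against 7.18 and 5.22 CPM in WT, so its groups overlapped, and its log2 ratio of means was 0.20 in place of 0.61. With equal weights 10.9% of genes had null above WT at E7.5, 14.4% at E8.5 and 3.07% at E9.5, and 33.4%, 33.7% and 7.21% were separated in either direction. With equal weights the exact permutation over all stages gave p = 0.00238 for *Ccng1*, 0.0111 for *Phlda3*, 0.0135 for *Cdkn1a*, 0.0175 for *Trp53inp1*, 0.0214 for *Bbc3* and 0.0397 for *Eda2r*, each higher in null. It gave 0.0167 for *Pmaip1*, which was lower in null, and 0.539 for *Trp53*, 0.627 for *Mdm2* and 0.494 for *Bax*. These p-values are not adjusted either, and the share of all genes that would pass such a permutation was not tested. They thus do not set these genes apart from other genes. The permutation averages the CPM differences of the stages, so the stage with the largest one weighs most. For *Cdkn1a* null minus WT was 11.5 CPM at E7.5, 0.94 at E8.5 and 2.37 at E9.5. For *Pmaip1* it was -2.76, -0.456 and -0.0815 CPM in that order. Both p-values thus rest largely on the E7.5 libraries, which alone allow no p below 0.333. For *Ccng1* the differences ran from 3.53 to 5.85 CPM.

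Within cell types the comparison was repeated on sums per library and type, in 7 types at E7.5, 20 at E8.5 and 37 at E9.5. The call here needed both an adjusted p under 0.05 and a log2 fold change beyond 1 in size. Of the 10 genes, 2 were called, both at E9.5 and higher in null, *Ccng1* in Epicardium and *Eda2r* in YS mesothelium. The second of these passed the filter on low counts only through its null libraries, so it had to differ to be tested and supports nothing by itself. Over the 10 genes, the level that the filter requires was reached in null libraries alone in 1 of 54 tests at E7.5, 3 of 127 at E8.5 and 3 of 257 at E9.5, and in WT libraries alone in 1, 0 and 1. Where such tests enter a count of types, the count without them is given after it. Counted per test, the 2 calls fell among the 257 tests of the 10 genes at E9.5. The call was passed by 0.121% of all tests over genes and types at E9.5, 0.0622% at E8.5 and 0.185% at E7.5. The share of all genes called in at least 1 type is not given here. Without the fold threshold *Ccng1* also passed in Optic vesicle and in Hindbrain floor plate, where 0.273% of all E9.5 tests did (0.248% at E7.5 and 0.0942% at E8.5, with 0 of the 10 genes).

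In Epicardium, the outer cell layer of the heart, *Ccng1* read 11.6, 9.24, 12.5 and 14.2 CPM in the WT libraries A to D (10, 7, 21 and 24 UMIs). The null libraries A, C and D read 20.9, 33.6 and 52.0 CPM (24, 29 and 54 UMIs), all above the WT libraries, as for 3.31% of the genes tested there, and null B, with 14 cells and not in the test, read 13.2 CPM (6 UMIs), inside the WT range. The log2 fold change was 1.52 (SE 0.29, adjusted p = 0.0178 with edgeR). Without both E9.5 WT C and E9.5 WT D it was 1.75 with an adjusted p of 0.304, and the call was also lost when WT B (adjusted p = 0.0917), WT C (0.11), WT D (0.0583), null C (0.0582) or null D (0.255) was left out and with limma-voom (0.103). DESeq2 gave no adjusted p there. The markers *Wt1*, *Tbx18*, *Tcf21* and *Upk3b*, picked after the call, were all higher in Epicardium than in other cells.

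*Eda2r* in YS mesothelium rested on few molecules. The WT libraries A, B and D held 1, 1 and 5 UMIs (0.725, 0.653 and 1.36 CPM), and the null libraries A, C and D held 6, 8 and 9 UMIs (8.21, 10.5 and 8.497 CPM). Null B, with 11 cells and not in the test, held 1 UMI (2.597 CPM). Among the libraries tested, only the null ones reached the level that the filter requires. The groups did not overlap, with null above WT for 6.64% of the genes tested there, and the log2 fold change was 2.99 (SE 0.59, adjusted p = 0.0225 with edgeR). The adjusted p was 0.0657 with DESeq2, 0.0886 with all 16 libraries in the fit, and 0.104, 0.168 and 0.177 without null A, C and D, and without both E9.5 WT C and E9.5 WT D the gene did not pass the filter. Of 4 mesothelial markers picked afterwards, *Upk3b*, *Postn* and *Hand1* were higher in this type than in other cells and *Wt1* was not, at 1.99 against 4.23 CPM. *Eda2r* passed the filter on low counts in this type alone.

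In Optic vesicle, the rudiment of the eye, *Ccng1* read 13.1, 13.2, 10.3 and 10.4 CPM in WT and 23.6, 16.5, 17.6 and 18.5 CPM in null libraries (log2 fold change 0.74, SE 0.14, adjusted p = 0.0109 with edgeR). In Hindbrain floor plate, the ventral midline of the neural tube, it read 10.2, 10.1, 11.02 and 6.98 CPM in WT and 19.8, 17.8, 13.4 and 20.9 CPM in null libraries (0.89, SE 0.19, adjusted p = 0.0347 with edgeR). In both types each null library lay above each WT library, as for 1.44% and 2.08% of the genes tested there. Without both E9.5 WT C and E9.5 WT D the adjusted p was 0.389 in Optic vesicle and 0.287 in Hindbrain floor plate, with log2 fold changes of 0.58 and 0.83. The Hindbrain floor plate result was also lost with DESeq2 (0.0887), limma-voom (0.0664), all 16 libraries in the fit (0.0755) and without WT A (0.0742), WT C (0.0772), WT D (0.127), null A (0.108), null B (0.101) or null D (0.143). That in Optic vesicle was lost with all 16 libraries (0.0621) and without WT C (0.0635), WT D (0.0508) or null A (0.0865). All 4 markers picked for each of these types were higher there than in other cells.

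Across types *Ccng1* was higher in null in each of the 36 types in which it could be tested at E9.5, with a median log2 fold change of 0.65 and a range of 0.07 to 1.52. In 23 of these the unadjusted p was under 0.05, against 3.16% of all E9.5 tests for p under 0.05 with the higher level in null. Of 7296 genes tested in at least 30 types at E9.5, 36 genes (0.493%) were higher in every type, and the medians of 5% to 95% of genes spanned -0.13 to 0.14. The median of *Ccng1* ranked 15 from the top of those genes. The types come from the same 8 libraries and are not independent of each other. Without both E9.5 WT C and E9.5 WT D, *Ccng1* was higher in 96.7% of the types tested. Placodal ectoderm passed the filter through null libraries alone, and without it the count was 35 of 35 types. Leaving out single libraries gave 94.6% to 100%.

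**Figure D2:**
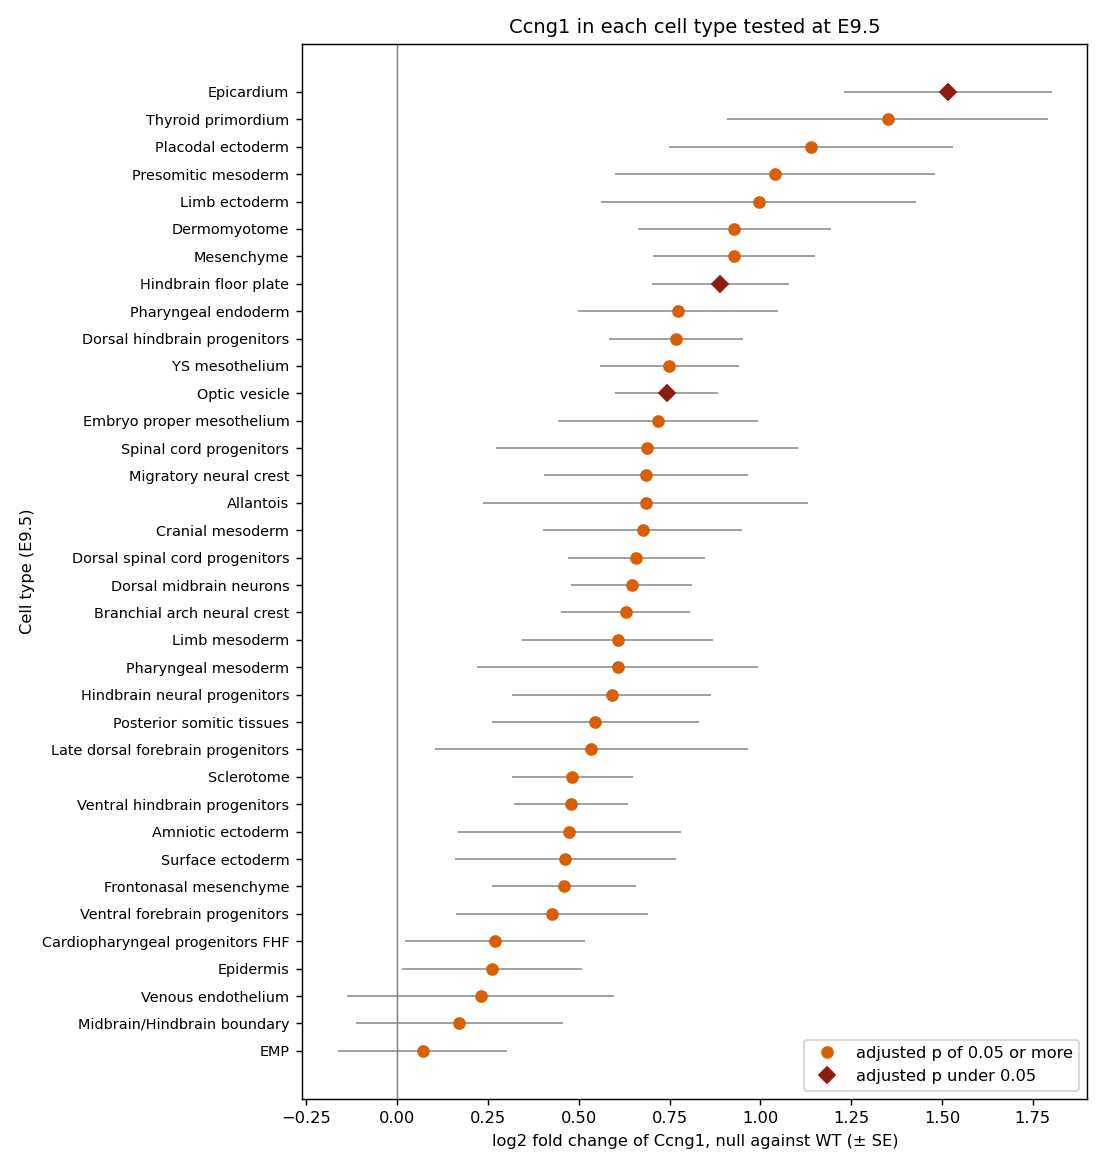
Log2 fold change of *Ccng1*, null against WT, in each of the 36 cell types tested at E9.5, with bars of ± SE; diamonds mark an adjusted p under 0.05. Each point lies to the right of 0, from 0.07 in EMP to 1.52 in Epicardium.

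At E8.5 *Ccng1* was higher in null in 19 of 19 types (median 0.68, 7 at an unadjusted p under 0.05, against 2.13% of all E8.5 tests with the higher level in null), where 1.09% of genes tested in at least 15 types were higher in every type. That result rested on 1 library, since without E8.5 null A the share fell to 65% of the types then tested and the median to 0.18. Within cell types at E7.5 and E8.5, values with 1 library left out come from fits of the libraries of all stages. Their filter and the types tested thus differ from those of the main fit. At E7.5 *Ccng1* was higher in 6 of 7 types (median 0.51), and the median was 0.07 without E7.5 null A and 0.30 without E7.5 null B. Its smallest adjusted p fell in Pharyngeal endoderm at E8.5, with 8.59 and 4.51 CPM in WT and 23.3 and 6.24 CPM in null (1.51, adjusted p = 0.183), and in Blood progenitors at E7.5 (0.52, adjusted p = 0.959), both from edgeR. In Pharyngeal endoderm the groups overlapped.

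*Phlda3* was higher in null in 31 of 33 types at E9.5 (median 0.47, 13 at an unadjusted p under 0.05; 82.8% of types and a median of 0.37 without both E9.5 WT C and E9.5 WT D), 12 of 16 at E8.5 (median 0.51) and 6 of 7 at E7.5 (median 0.62). Its smallest adjusted p fell in Pharyngeal endoderm at E9.5, with 20.1, 20.2 and 19.5 CPM in WT A, B and D and 36.3, 33.5, 28.6 and 32.5 CPM in null (0.75, SE 0.17, adjusted p = 0.0633 with edgeR). These groups did not overlap, with null above WT for 3.13% of the genes tested there, but WT C, left out of the test with 14 cells, read 37.1 CPM. At E8.5 the smallest adjusted p also fell in Pharyngeal endoderm (1.19, adjusted p = 0.7) and at E7.5 in Blood progenitors (0.87, adjusted p = 0.38, edgeR). As for *Ccng1*, the E8.5 pattern rested on null A, without which the median over types was -0.28. With 1 E7.5 library left out, the E7.5 median was 0.38 to 0.49.

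*Cdkn1a* was higher in null in 6 of 6 types at E7.5 (median 0.65), 8 of 11 at E8.5 (median 0.63) and 10 of 17 at E9.5 (median 0.40; 73.9% and 0.54 without both E9.5 WT C and E9.5 WT D), with 20 types at E8.5 and 37 at E9.5 open to testing. With 1 E9.5 library left out, the E9.5 share was 61.5% to 78.9% and the median 0.40 to 0.69. Mesenchyme at E7.5 and Allantois at E8.5 passed the filter through null libraries alone, and without them the counts were 5 of 5 and 7 of 10. At E7.5, 8.14% of genes tested in at least 6 types were higher in every type. Without E7.5 null B the share of types was 57.1% and the median 0.32, and leaving out single E7.5 libraries gave medians up to 1.12. Without E8.5 null A the share was 50% and the median 0.07, and without E8.5 WT B they were 60% and 0.21. At E7.5 its smallest adjusted p was in Caudal epiblast, with 67.8 and 75.9 CPM in WT and 96.2 and 138 CPM in null (0.65, SE 0.19, adjusted p = 0.326 with edgeR). At E8.5 it was in Erythroid cells, with 8.34 and 4.10 CPM in WT and 18.0 and 16.1 CPM in null (1.39, SE 0.42, adjusted p = 0.457 with edgeR). In both types, named for their smallest adjusted p, the null libraries lay above the WT libraries, as for 13.6% and 13.3% of the genes tested there. At E9.5 it was in Sclerotome, in the other direction, with 5.70, 10.2, 6.19 and 8.23 CPM in WT and 3.79, 5.23, 2.44 and 5.62 CPM in null (-0.78, SE 0.25, adjusted p = 0.191 with edgeR), without overlap, as for 4.09% of the genes tested there with null below WT.

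The remaining targets were less uniform. *Trp53inp1* was higher in null in 20 of 22 types at E9.5 (median 0.35), 4 of 5 at E8.5 and 4 of 4 at E7.5. Without 1 type each that passed the filter through null libraries alone, it was 19 of 21 at E9.5 and 3 of 4 at E8.5, and without both E9.5 WT C and E9.5 WT D 17 of 22 at E9.5. The gene had its smallest adjusted p in Optic vesicle at E9.5 (0.74, adjusted p = 0.614), Erythroid cells at E8.5 (0.48, 0.953) and Ectoderm at E7.5 (0.56, adjusted p = 1), by edgeR. *Bbc3* was higher in 24 of 33 types at E9.5 (median 0.14; 25 of 30 without both E9.5 WT C and E9.5 WT D), 6 of 15 at E8.5 and 5 of 5 at E7.5. Its smallest adjusted p was 0.507 in Pharyngeal endoderm at E8.5 (1.18), with 0.728 in Ventral forebrain progenitors at E9.5 (0.51) and 0.997 in Blood progenitors at E7.5 (0.01), by edgeR. *Pmaip1* was lower in 4 of 4 types at E7.5 (median -0.58) and in the 1 type tested at E8.5, Spinal cord progenitors (-0.73, adjusted p = 0.999), and higher in 3 of 4 at E9.5, also without both E9.5 WT C and E9.5 WT D. Intermediate mesoderm at E7.5 and Limb ectoderm at E9.5 passed the filter through WT libraries alone, so *Pmaip1* had to be lower in null to be tested there. Without them it was lower in 3 of 3 types at E7.5 and higher in 3 of 3 at E9.5. Its smallest adjusted p was in Limb ectoderm at E9.5, with 48.0 and 26.4 CPM in WT A and D and 10.6 and 7.37 CPM in null A and B (-1.99, SE 0.42, adjusted p = 0.0993 with edgeR). The groups did not overlap among the libraries tested, with null below WT for 17.6% of the genes tested there, but WT B and C, with 9 and 4 cells, read 9.25 and 7.34 CPM. In Intermediate mesoderm at E7.5 it read 6.97 and 15.2 CPM in WT and 3.34 and 4.26 CPM in null (-1.59, adjusted p = 0.312 with edgeR).

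*Trp53*, *Bax* and *Mdm2* had medians close to 0 within types at E9.5. *Trp53* was higher in null in 12 of 37 types at E9.5 (median -0.06), 10 of 20 at E8.5 and 3 of 7 at E7.5. *Bax* was higher in 12 of 37, 12 of 20 and 3 of 7 types, and *Mdm2* in 17 of 37, 8 of 20 (7 of 19 without Thyroid primordium, which passed through null libraries alone) and 5 of 7. At E9.5 the counts without both E9.5 WT C and E9.5 WT D were 10 of 31 for *Trp53*, 11 of 31 for *Bax* and 18 of 31 for *Mdm2*. At E9.5 the fold changes spanned -0.29 to 0.15 for *Trp53*, -0.13 to 0.20 for *Bax* and -0.45 to 0.34 for *Mdm2*. For *Trp53* the smallest adjusted p was in Sclerotome at E9.5 (-0.08, 0.679), Erythroid cells at E8.5 (-0.18, 0.768) and Blood progenitors at E7.5 (-0.11, 0.996). For *Bax* it was in YS mesothelium (0.20, 0.745), Erythroid cells (-0.08, 0.929) and Blood progenitors (-0.05, 0.996), and for *Mdm2* in Cranial mesoderm (0.27, 0.872), Erythroid cells (0.27, 0.664) and Blood progenitors (0.40, 0.919), at the same 3 stages in that order and with edgeR.

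**Figure D3:**
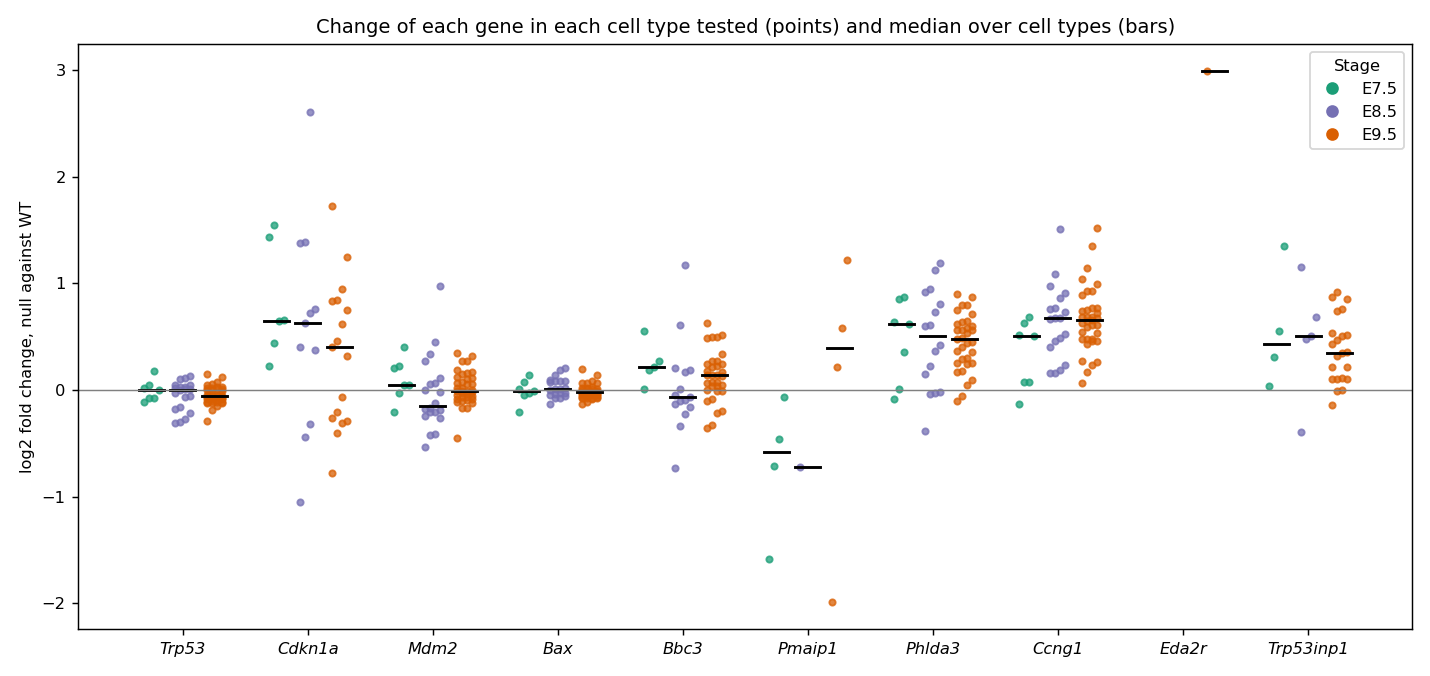
Log2 fold change of null against WT for each gene, with a point per cell type tested and a black bar at the median, colored by stage. At E9.5 the medians are 0.65 for *Ccng1*, 0.47 for *Phlda3* and 0.35 for *Trp53inp1*, and between -0.06 and -0.01 for *Trp53*, *Bax* and *Mdm2*.

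The share of cells with at least 1 UMI was compared after thinning each cell to 10000 UMIs, which left out no cell. *Trp53* was detected in 72.4% to 84.4% of cells and *Bax* in 85.3% to 96.2% over the 16 libraries, whereas *Cdkn1a* was detected in 5.15% to 16.6% and *Pmaip1* in 0.913% to 9.44%. Before thinning a single cell held up to 163 UMIs of *Cdkn1a*. At E9.5 *Ccng1* was detected in 16.04% ± 1.89 of null and 11.5% ± 1.83 of WT cells (SD, n = 4 libraries), and in 43.8% ± 2.33 and 29.1% ± 2.66 before thinning. *Cdkn1a* was detected in 7.91% ± 2.67 of null and 6.17% ± 0.818 of WT cells at that stage, with groups that overlapped. No cell type known to lack these transcripts was at hand to set the level of free RNA.

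The other genes of the pathway were taken from lists. The listed *Rpl5*, *Rpl11* and *Rps27l* were not tested, because genes named as ribosomal proteins were left out. *Cop1* was not in the matrix under that symbol. Of 24 regulators of p53, 21 were tested in whole libraries, and 1 of them, *Cdkn2a*, fell at E7.5 (log2 fold change -3.55, adjusted p = 0.0182), from 18.9 ± 7.60 CPM in WT to 1.49 ± 0.471 CPM in null (SD, n = 2). It encodes p19ARF, which inhibits MDM2, and p16. Of 15 further targets of cell cycle and DNA repair tested, *Sfn* (-2.61, adjusted p = 0.0184) and *Gadd45b* (-1.25, adjusted p = 0.00239) fell at E7.5. Of 14 of apoptosis *Perp*, a desmosomal membrane protein, fell (-2.53, adjusted p = 0.00327), and of 20 of metabolism and other roles *Ak1* (-1.19, adjusted p = 0.00122) and *Gls2* (-1.27, adjusted p = 0.00978) fell. None of the tested genes of these 4 lists rose at E7.5, and 0 were called at E8.5 or E9.5, at the background shares given above for whole libraries. The 6 genes that fell were each higher in the ExE ectoderm of the WT libraries than in their other cells, for example 177 against 9.10 CPM for *Perp*, 124 against 5.12 CPM for *Sfn* and 79.8 against 7.53 CPM for *Cdkn2a*, and the part of that tissue in the result was not tested. Averaged over the stages *Bloc1s2* rose (0.20, adjusted p = 0.0231) and *Gls2* (-0.61, adjusted p = 0.0212) and *Cdkn2a* (-1.75, adjusted p = 0.0344) fell. All adjusted p-values of these lists are from edgeR over all genes.

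At E9.5 the median log2 fold change was 0.01 over the regulators, 0.05 over the targets of cell cycle and DNA repair, 0.10 over those of apoptosis and 0.05 over those of metabolism and other roles, beside 0.00 over all genes. Within cell types 0 genes of these 4 lists were called at any stage. The 10 stress genes had 0 calls and a median of -0.14 at E9.5 in whole libraries, and *Egr1* in Cranial mesoderm passed the adjusted p alone (-0.97, adjusted p = 0.037 with edgeR).

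The same genes were compared between stages of the WT cells. From E7.5 to E8.5, 7 passed an adjusted p of 0.05 in whole libraries, where 44.7% of genes did, 22.7% higher and 22% lower. *Bbc3* rose by 0.67 on the log2 scale (SE 0.10, adjusted p = 0.000197). *Pmaip1* fell by 2.44 (SE 0.44, adjusted p = 0.000648), *Phlda3* by 1.44 (SE 0.21, adjusted p = 0.000173), *Trp53inp1* by 0.89 (adjusted p = 0.0232), *Ccng1* by 0.62 (adjusted p = 0.045), *Bax* by 0.22 (adjusted p = 0.0448) and *Mdm2* by 0.19 (adjusted p = 0.0473), all with edgeR. *Bbc3*, *Phlda3* and *Pmaip1* were called in each of 16 fits that left out 1 library, but *Trp53inp1* in 13, *Bax* in 8, *Ccng1* in 5 and *Mdm2* in 4 of them, and 6 genes passed without both E9.5 WT C and E9.5 WT D. The log2 change of *Bax* ran from -0.31 to -0.12 in these 16 fits. The ExE ectoderm made up 15.8% and 9.37% of the E7.5 WT cells and 0% at E8.5. Like *Phlda3*, *Ccng1* and *Mdm2*, *Trp53inp1* was higher in it than in other E7.5 WT cells (11.05 against 4.82 CPM). *Bax* and *Pmaip1* were lower in it. The part of this tissue in these falls was not tested. Only 2 WT types were held at both of these stages. In both, *Phlda3*, *Pmaip1* and *Bax* were lower at E8.5 and *Mdm2* was higher (median log2 ratio 0.03). *Ccng1*, *Trp53inp1* and *Bbc3* were each higher in 1 and lower in 1. From E8.5 to E9.5, 3 passed, also without both E9.5 WT C and E9.5 WT D, where 40.3% of genes did. *Trp53inp1* rose by 1.10 (SE 0.25, adjusted p = 0.00399), *Bbc3* by 0.29 (SE 0.09, adjusted p = 0.0164) and *Bax* fell by 0.37 (SE 0.07, adjusted p = 0.00106), again with edgeR. Scaling by library totals alone moved the median of all genes in this step from 0.06 to 0.20 and the split of calls from 3528 higher and 2746 lower to 5390 and 1652, and *Mdm2* then rose (0.26, adjusted p = 0.00483). These totals are sums over the genes tested, without haemoglobin.

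Within the 31 WT types held at both E8.5 and E9.5, *Phlda3* was higher at E9.5 in 31 (median log2 ratio of means 0.77), *Mdm2* in 28 (0.31) and *Trp53inp1* in 27 (0.78), while *Bax* was lower in 27 (-0.15). *Trp53* was higher in 13 of 31 (-0.01). These ratios are a description without a test. In whole libraries *Phlda3* changed by 0.12 over the same step with TMM factors (adjusted p = 0.634 with edgeR). With library totals alone it changed by 0.26 (adjusted p = 0.298 with edgeR). The ratios within types are of CPM without TMM factors, so the gap between 0.77 and 0.12 also holds a difference of scaling. Whether its level within types and its level over all cells moved alike was not tested on the same scale. *Cdkn1a* was higher at E9.5 in 20 of the 31 types, *Ccng1* and *Bbc3* each in 21, *Pmaip1* in 17 and *Eda2r* in 14.

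Levels in WT cell types, again without a test, varied far more for some targets than for p53. At E9.5, over 40 types, the highest level was 1.45 times the median for *Trp53* and 1.42 times for *Bax*, against 13.1 times for *Cdkn1a* and 75.05 times for *Pmaip1*. *Trp53* was highest in Venous endothelium (238 ± 30.8 CPM, mean ± SD over libraries), Branchial arch neural crest (228 ± 19.9) and Frontonasal mesenchyme (211 ± 15.3), and lowest in YS mesothelium (107 ± 16.98), Megakaryocyte progenitors (85.8 ± 0.682) and Erythroid cells (79.4 ± 8.30). *Bax* was highest in Somitic mesoderm (310 ± 2.22), Venous endothelium (281 ± 8.002) and Limb ectoderm (275 ± 4.73), and lowest in YS mesothelium (164 ± 0.481), Erythroid (161 ± 34.4) and Amniotic ectoderm (149 ± 21.7). Of the 39 pairs of neighbors in each order, at most 2 differed by more than the sum of their SDs at E9.5, among them Somitic mesoderm and Venous endothelium for *Bax*, so the orders within them are mostly not resolved. These CPM count haemoglobin, which took 31.4% to 35.1% of the UMIs of E9.5 WT Erythroid cells. Without it in the totals, these cells read 294, 218, 181 and 264 CPM of *Bax* in WT A to D. For *Trp53* they then read 128, 109, 125 and 110 CPM.

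*Cdkn1a* was highest in Limb ectoderm (66.4 ± 14.8 CPM at E9.5, 88.6 ± 9.45 at E8.5), followed at E9.5 by Pharyngeal endoderm (48.3 ± 16.7) and EMP (44.6 ± 30.4). It was lowest in Branchial arch neural crest (1.21 ± 0.961), Cardiopharyngeal progenitors FHF (0.995 ± 0.342) and Embryo proper mesothelium (0.877 ± 1.75). At E7.5 it was highest in Caudal epiblast (71.8 ± 5.73), beyond the spread of the next type. Branchial arch neural crest was thus among the highest types for *Trp53* and among the lowest for *Cdkn1a*.

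*Pmaip1* was likewise highest in Limb ectoderm at E9.5 (37.2 ± 15.2 CPM), then Late dorsal forebrain progenitors (12.8 ± 9.35) and EMP (10.3 ± 4.94), and at 0 UMIs in 4 types, Epicardium, Venous endothelium and YS mesothelium among them. Its highest types were NMPs at E8.5 (22.7 ± 13.3) and Caudal epiblast at E7.5 (24.0 ± 1.78). *Bbc3* was highest in Optic vesicle (30.1 ± 1.25), Late dorsal forebrain progenitors (28.2 ± 6.90) and Thyroid primordium (24.9 ± 5.80) at E9.5, Dorsal hindbrain progenitors (22.3 ± 1.85) at E8.5 and Ectoderm (15.8 ± 1.78) at E7.5. It was lowest in Mesenchyme (5.55 ± 2.82), Limb ectoderm (4.81 ± 6.80) and YS mesothelium (2.02 ± 1.12). The level in Limb ectoderm came from 4 UMIs, all in 1 of its 2 libraries.

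*Phlda3* was highest in surface epithelia at E9.5, Epidermis (79.7 ± 14.9 CPM), Surface ectoderm (79.1 ± 31.6) and Limb ectoderm (76.4 ± 2.73), which lay beyond the spread of the next type. It was lowest in Dorsal midbrain neurons (3.51 ± 1.12), Megakaryocyte progenitors (3.07 ± 1.21) and Dorsal hindbrain progenitors (2.24 ± 1.47), and its highest types were Limb ectoderm (50.04 ± 3.16) at E8.5 and ExE ectoderm (125 ± 18.6) at E7.5. *Ccng1* was highest in YS mesothelium (40.2 ± 6.28), Erythroid (28.1 ± 11.9) and Amniotic ectoderm (26.7 ± 8.91) at E9.5, YS mesothelium (26.5 ± 10.1) at E8.5 and ExE ectoderm (44.7 ± 2.26) at E7.5. Its lowest types at E9.5 were Limb mesoderm (9.003 ± 3.97), Embryo proper mesothelium (8.19 ± 1.46) and Dermomyotome (6.92 ± 1.09). ExE ectoderm was also the highest type at E7.5 for *Mdm2* (52.3 ± 2.66) and *Eda2r* (1.05 ± 0.746).

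*Mdm2* was highest at E9.5 in Megakaryocyte progenitors (72.6 ± 9.85 CPM), Epidermis (59.1 ± 10.4) and Dorsal midbrain neurons (50.3 ± 3.37) and lowest in Cranial mesoderm (27.6 ± 6.98), Frontonasal mesenchyme (26.1 ± 5.55) and Erythroid cells (22.3 ± 4.36), and at E8.5 it was highest in Surface ectoderm (40.8 ± 1.41). Without haemoglobin in the totals, Erythroid cells read 33.9, 42.0, 32.3 and 24.8 CPM of *Mdm2* in E9.5 WT A to D. *Trp53inp1* was highest in Thyroid primordium (27.5 ± 15.1), Dorsal midbrain neurons (27.0 ± 3.38) and Epidermis (18.1 ± 8.14) and lowest in Megakaryocyte progenitors (1.11 ± 1.56), Spinal cord progenitors (1.00 ± 1.28) and Presomitic mesoderm (0.928 ± 1.31). Its highest types were Thyroid primordium (11.997 ± 0.296) at E8.5 and Visceral endoderm (32.8 ± 8.47) at E7.5. *Eda2r* stood at 2.40 ± 3.40 in Limb ectoderm, 2.15 ± 0.168 in Amniotic ectoderm and 1.45 ± 1.48 in Pharyngeal endoderm at E9.5, and at 5.06 ± 4.76 in Amniotic ectoderm at E8.5. These levels came from 2, 4, 8 and 6 UMIs, those of Limb ectoderm in 1 of 2 libraries, and its level was 0 after thinning each cell to 10000 UMIs. It had 0 UMIs in 5 types of E9.5, among them Midbrain/Hindbrain boundary, Placodal ectoderm and Thyroid primordium. For *Trp53* the highest types were Embryo proper endothelium (228 ± 29.9) at E8.5 and Ectoderm (199 ± 26.1) at E7.5, and for *Bax* they were Branchial arch neural crest (311 ± 0.828) and Visceral endoderm (361 ± 12.5).

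**Figure D4:**
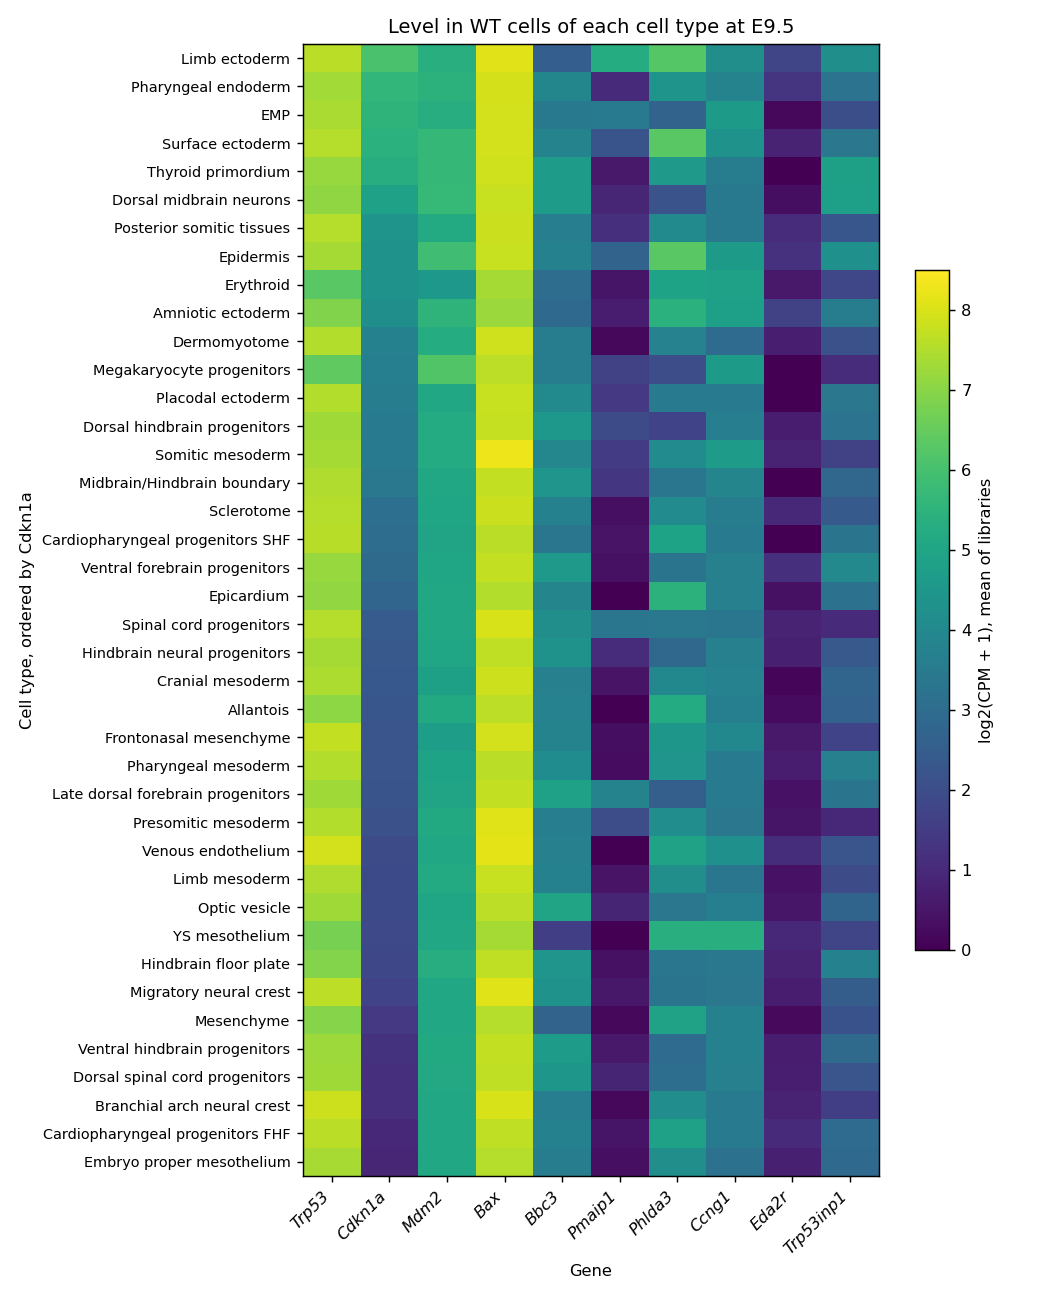
Level of each gene, as log2(CPM + 1) of the mean of the WT libraries, in 40 cell types at E9.5, ordered by *Cdkn1a*. *Trp53* and *Bax* vary little down their columns, while *Cdkn1a* runs from 66.4 CPM in Limb ectoderm to 0.877 CPM in Embryo proper mesothelium.

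Over 87 points (WT cell types of the 3 stages, which share libraries), the genes most like *Trp53* by Pearson's r of log2(CPM + 1) were *Bzw2* (r = 0.80), *Apex1* (0.78) and *Ptma* (0.75), among genes with a mean of at least 10 CPM. Those most like *Cdkn1a* were the epithelial genes *Cldn7* (0.67) and *Cdh1* (0.66) and the proton pump subunit *Atp6v1f* (0.67). Among the 10 genes, r was 0.49 for *Phlda3* and *Ccng1*, 0.43 for *Cdkn1a* and *Pmaip1*, 0.40 for *Trp53* and *Bax*, -0.47 for *Trp53* and *Ccng1* and -0.10 for *Trp53* and *Cdkn1a*. These are descriptions of points that share libraries, depth and base composition.

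Erythroid cells, the primitive red cells of the yolk sac and early circulation, were compared with the other cells of the same 6 WT libraries of E8.5 and E9.5, because the study followed this lineage. Haemoglobin took 13.8% to 35.1% of UMIs in Erythroid cells and 0.0568% to 0.296% elsewhere. Of all genes, 74.5% passed an adjusted p of 0.05 in this contrast, 29.1% higher and 45.4% lower, so a call is the common outcome. Of the 10 genes 6 passed, and the number was 6 too without both E9.5 WT C and E9.5 WT D. The median of all genes was -0.31 with TMM factors and -0.68 with library totals alone, and the split of calls moved from 4154 higher and 6492 lower to 2686 and 8254. Library totals here also cover only the genes tested, so haemoglobin is not in them.

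*Ccng1* and *Phlda3* were higher in Erythroid cells under both scalings. *Ccng1* read 17.2 to 18.0 CPM in the Erythroid cells of the E8.5 libraries and 43.4, 18.2, 19.1 and 31.7 CPM in those of E9.5 WT A to D, against 9.84 to 15.3 CPM in the other cells. All 6 Erythroid sums were thus above the other cells, and the log2 difference was 1.94 (SE 0.17, adjusted p = 3.01e-08 with edgeR). *Phlda3* stood at 24.2 ± 10.4 CPM in Erythroid and 15.2 ± 2.30 CPM in other cells (SD, n = 6; 1.54, SE 0.17, adjusted p = 1.54e-06), and its E8.5 Erythroid sums, at 14.8 and 13.4 CPM, lay within the range of the other cells. Scaled by library totals the differences were 1.59 for *Ccng1* and 1.19 for *Phlda3* (adjusted p = 4.30e-06 and 0.000218, edgeR). *Pmaip1* was lower, with 10 UMIs in all Erythroid and 781 in all other cells (-2.01, SE 0.54, adjusted p = 0.00279), as was *Trp53inp1* (-0.92, SE 0.25, adjusted p = 0.00259 with edgeR).

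For *Trp53*, *Mdm2* and *Bbc3* the result in Erythroid cells depended on the scaling. *Trp53* was 84.7 ± 11.1 CPM in Erythroid and 168 ± 6.03 CPM in other cells, and 117 ± 7.79 against 169 ± 6.05 when haemoglobin was left out of the totals, lower in each library. Its log2 difference was nevertheless -0.0045 with TMM factors (adjusted p = 0.962) and -0.35 with library totals (adjusted p = 0.000151, edgeR). *Mdm2* was higher with TMM factors (0.40, adjusted p = 0.00245) and 0.05 with library totals (adjusted p = 0.673), at 22.2 ± 3.67 against 33.3 ± 3.78 CPM, and 31.2 ± 6.41 against 33.4 ± 3.76 without haemoglobin. *Bax* was higher under both (0.55 and 0.21, adjusted p = 3.08e-05 and 0.0309), although its CPM were lower with all genes counted, at 172 ± 35.3 against 231 ± 18.6, and 238 ± 40.4 against 231 ± 18.7 without haemoglobin. *Bbc3* was -0.33 with TMM factors (adjusted p = 0.0812) and -0.69 with library totals (adjusted p = 0.00188). With 1 library left out it ran from -0.55 to -0.24 with TMM factors (adjusted p = 0.0118 to 0.241, edgeR), so it also depended on single libraries. *Cdkn1a* ranged from 4.10 to 49.8 CPM over the Erythroid sums, the highest in E9.5 WT A, and passed under neither scaling (0.94, adjusted p = 0.188 with edgeR's TMM factors; 0.29 to 1.36 with 1 library left out), and *Eda2r* rested on 15 Erythroid UMIs (-0.12, adjusted p = 0.831).

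**Figure D5:**
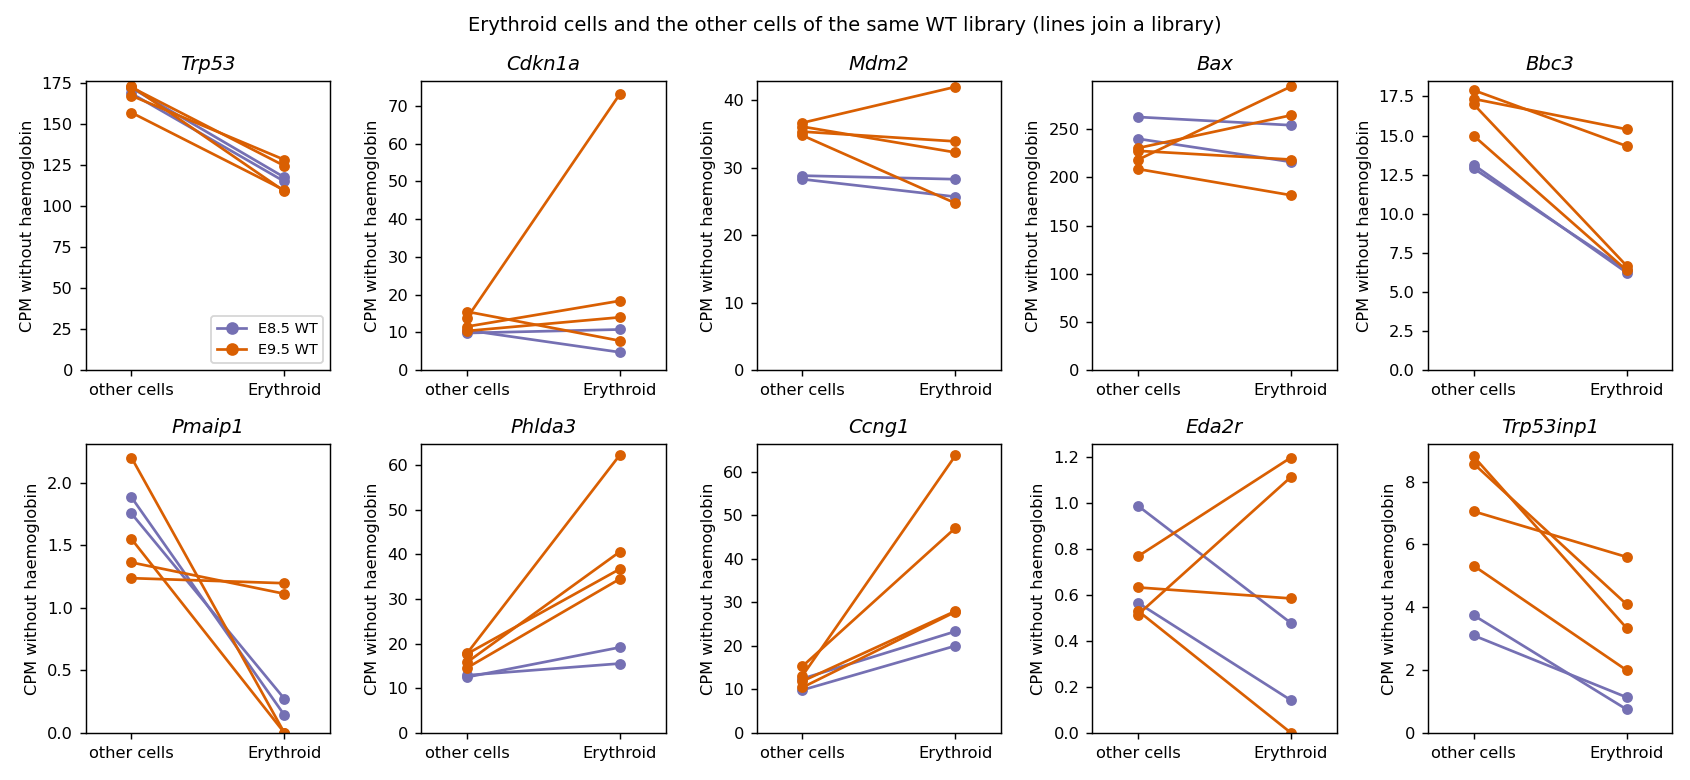
Level of each gene in Erythroid cells and in the other cells of the same WT library, in CPM with haemoglobin left out of the totals, on axes that start at 0; lines join the sums of a library (violet E8.5, orange E9.5). *Ccng1* and *Phlda3* rise along all 6 lines, and *Trp53*, *Bbc3* and *Trp53inp1* fall along all 6.

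A comparison of null with WT Erythroid cells was possible at E8.5 only, since Erythroid cells were 0.083% to 0.388% of the E9.5 null and 1.63% to 5.32% of the E9.5 WT cells. At E8.5 they were 11.4% to 15.5% of null and 16.3% to 16.7% of WT cells. *Ccng1* read 24.4 and 16.9 CPM in null against 18.0 and 17.2 CPM in WT Erythroid cells, and *Phlda3* 13.5 and 6.96 CPM against 14.8 and 13.4 CPM. *Mdm2* stood at 25.7 and 29.6 CPM in null and 19.9 and 24.4 CPM in WT, without overlap, as for 13.3% of the genes tested there with null above WT (adjusted p = 0.664 with edgeR), and *Trp53* at 78.6 and 96.8 CPM in null and 89.1 and 101 CPM in WT, with overlap. *Bbc3* went the other way, at 4.43 and 3.58 CPM in null and 4.96 and 5.38 CPM in WT, also without overlap. The share of genes with null below WT in this type is not given here. None of the 10 genes was called there.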

How the data were processed

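The authors mapped 3′ single-cell reads to mm10 with Cell Ranger and deposited unnormalized UMI counts for each cell, with a table that gives its library, stage, sort gate, quality filter, doublet call and atlas cell type. The 10 genes and all lists were chosen with earlier results of these data known. Cells that passed the authors' filter were used without doublet calls (3395 cells) and without 596 WT cells that held a tdTomato UMI. Library names match no sample title, so the group of a library was read from the stage and sort gate in the table of cells, and its embryo pool is not known. Counts were summed per library, or per library and cell type (over 15 cells, 2 or more libraries for each genotype), and tested with edgeR 4.0.16 (robust quasi-likelihood test, filterByExpr, TMM factors, Benjamini-Hochberg). Whole libraries were fitted together (16 libraries, 6 groups), cell types per stage, and Erythroid sums with the library as a block. With 1 library of E7.5 or E8.5 left out, a cell type was fitted with its libraries of all stages. The tests left out haemoglobin, ribosomal protein, mitochondrial, predicted and sex-linked marker genes and the tdTomato transgene. The study's block of embryo pools could not be fitted. Named genes were all 10 and, per gene and stage, the type with the smallest adjusted p. For levels, the 3 highest and lowest types of E9.5 and the highest of E7.5 and E8.5 were named, and listed genes only where called. Named types of the levels needed more than 15 cells in at least 2 WT libraries. Permutation tests were exact and two-sided. DESeq2 1.42.0 and limma-voom (limma 3.58.1) served as alternatives, and the tests were tried on simulated data. Replicates are libraries, so p-values measure the spread between libraries. The report gives the range of depth over libraries, and few UMIs limit the precision of low genes.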

Additional observations from a re-analysis of the deposited data

How the results depend on the processing

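No paired analysis was possible because the library names carry no pool or replicate number, so no pairing or block of replicates could be fitted. Of the whole-library fold changes of single genes, 443 alternative values kept their direction and side of the threshold, 26 reversed and 1 became significant, and with 1 library left out these numbers were 604, 35 and 1. Of the 10 genes, *Eda2r* had the fewest UMIs at each stage, followed by *Pmaip1* at E8.5 and E9.5 and by *Trp53inp1* at E7.5, which limits their precision.

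Counts of the 10 genes called changed as follows. Averaged over stages (0) the count was 1 with DESeq2 and 0 to 1 with a library left out. For WT E8.5 against E7.5 (7) it was 4 without a filter, 3 to 6 with a library left out and 8 with library totals alone, which added *Cdkn1a* (adjusted p = 0.0465, edgeR). For E9.5 against E8.5 (3) it was 1 to 3 with a library left out, with 1 call left without E8.5 WT B, and 4 with library totals alone. Within cell types, where calls of a gene in a type were counted, it was 1 at E7.5 (0) without a filter and 0 to 1 with a library left out, and at E8.5 (0) it was 1 with DESeq2 and 2 without a filter. At E9.5 (2) it was 0 with DESeq2, which gave no adjusted p for *Ccng1* in Epicardium, 1 with all 16 libraries in the fit, 1 with limma-voom, 8 without a filter, 0 with over 50 cells, 0 without E9.5 WT C and D, 4 without the fold threshold and 0 to 5 with a library left out. For Erythroid cells against other WT cells (6) it was 6 to 7 over the settings, and also 6 to 7 with a library left out. The share of all genes called under these settings is mostly not given here. The counts alone thus do not tell a move of the 10 genes from a move of all genes. The cause was not tested.

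Some fold changes reversed. With equal weights per type they were -0.017 for *Trp53*, 0.084 for *Mdm2*, -0.038 for *Bax* and 0.39 for *Phlda3* at E7.5, 0.015 for *Bax* at E8.5, -0.026 for *Trp53* and -0.14 for *Pmaip1* at E9.5, and -0.033 for *Trp53* and 0.013 for *Mdm2* averaged. With doublets kept they were -0.0017 for *Bax* and -0.0015 for *Trp53inp1* at E7.5, and -0.0043 for *Trp53* and -0.12 for *Pmaip1* at E9.5. With library totals alone they were -0.032 for *Bax* at E7.5, and -0.016 for *Trp53* and -4.8e-06 for *Pmaip1* at E9.5. Without Erythroid cells and Blood progenitors they were 0.019 for *Bax* at E8.5, -0.0055 for *Trp53* and -0.0039 for *Pmaip1* at E9.5 and 0.0053 for *Bax* averaged. *Trp53* at E9.5 was -0.0016 with DESeq2 and with its size factors, -0.0010 with tdTomato cells kept, -0.0030 with the stage fitted alone and -0.019 without WT C and D. Without WT C and D *Pmaip1* was -0.21 at E9.5 and 0.060 for WT E9.5 against E8.5, and *Trp53* in Erythroid cells was 0.018, and 0.050 with all genes tested.

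With a library left out, the ranges at E7.5 were -0.095 to 0.35 for *Trp53*, -0.10 to 0.024 for *Mdm2*, -0.076 to 0.10 for *Bax*, -0.86 to 0.54 for *Pmaip1*, -0.0061 to 0.14 for *Ccng1* and -0.22 to 0.39 for *Trp53inp1*. At E8.5 they were -0.077 to 0.072 for *Bax*, -0.15 to 0.41 for *Phlda3*, -0.17 to 1.10 for *Eda2r* and -0.019 to 0.75 for *Trp53inp1*. At E9.5 they were -0.044 to 0.048 for *Trp53*, -0.0090 to 0.059 for *Mdm2*, -0.055 to 0.010 for *Bax* and -0.17 to 0.19 for *Pmaip1*. Averaged they were -0.053 to 0.094 for *Trp53*, -0.032 to 0.026 for *Bax*, -0.42 to 0.053 for *Pmaip1* and -0.037 to 0.16 for *Phlda3*. For WT E9.5 against E8.5 *Eda2r* spanned -0.74 to 0.14, for Erythroid cells *Trp53* spanned -0.10 to 0.036 and *Eda2r* -0.41 to 0.26, and the E8.5 median of *Phlda3* over types spanned -0.28 to 0.74.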
